A study of Mus musculus with 9 samples.

Results

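The genes described here are the activating transcription factors of the circadian clock, Arntl (also named Bmal1), Clock and Npas2, and the nuclear receptors Rora, Nr1d1 and Nr1d2 that act on their transcription. They were found by matching the accession of every array probe to a RefSeq gene symbol, which gave 11 probes for these 6 genes, of 41174 probes and 18349 named genes on the array. Of the 11 probes, 10 were well above background on all 9 arrays. The other, a dim probe of Clock (A_52_P161365), was so on 1 array and was left out. All 6 genes were therefore measured.

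Total RNA of normal colonic mucosa was hybridised to 9 single-colour Agilent mouse arrays. The mice were of the outbred ICR stock, and all were given the colon carcinogen 1,2-dimethylhydrazine (DMH) under the skin, 20 mg/kg weekly over 20 weeks. DMH alone was given in 1 group (3 arrays). In the remaining 6 arrays the drinking water also held 1.5% butyrate, a short-chain fatty acid that colonocytes burn and that inhibits histone deacetylases. Of these, 3 are of mice without tumors and 3 of mice with tumors by title, description and source name. A further label field gives each of these 6 samples the opposite tumor status. If that field is the right one, the signs of all values between the butyrate groups turn, and what is given for either group against DMH holds for the other. The series was set up to compare butyrate with DMH. Untreated mice, ages and the hour at which mucosa was taken are not given in the labels. The labels also do not say that the arrays are of separate animals, so the p-values reflect no more than the spread of these samples, which may be technical.

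In the clock, ARNTL pairs with CLOCK or with its paralog NPAS2, and the pair binds E-box sequences and drives the Per and Cry genes, whose proteins inhibit the pair. The same pair drives Nr1d1 and Nr1d2, which encode the repressors REV-ERB-alpha and REV-ERB-beta, and the PAR bZIP factors Dbp, Tef and Hlf. REV-ERBs and the activating ROR receptors, among them the product of Rora, compete for the same DNA element, whose core is AGGTCA, at genes that include Arntl and Npas2. In intestinal mucosa this clock is known to run locally and to respond to feeding time.

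This core is shown here where the promoter windows of the 6 genes hold it, since the products of 3 of these genes bind it. The windows run from 250 bases before to 50 bases after a RefSeq start site (GRCm38.p6), and the 6 genes have 9 of them. AGGTCA, searched on both strands, occurred in 3 of the 9 windows, 1 each of Arntl, Clock and Nr1d2, against 16.3% of 32851 mouse windows of this length. These are 30 bases of each, 5′ to 3′ on the strand of the gene, with the core in capitals, which reads TGACCT where it lies on the other strand.
Arntl, chr7:113207530-113207559, plus strand: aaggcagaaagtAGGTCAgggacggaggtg
Clock, chr5:76303604-76303633, minus strand: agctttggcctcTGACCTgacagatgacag
Nr1d2, chr14:18239166-18239195, minus strand: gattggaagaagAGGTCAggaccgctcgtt
The first base of the core lay 32 bases after one of the start sites of Arntl, 119 bases before one of the start sites of Clock and 77 bases before that of Nr1d2. The E-box CACGTG, found in 7.15% of all windows, and the D-box TTANGTAA, the element of the PAR bZIP factors, found in 2.32%, occurred in none of the 9. A match is a matter of letters in these windows and does not show binding.

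The 75th percentile of the signal was between 188 and 880 on the 9 arrays. Slide 1 held all arrays without tumors and array 1 with tumors, and slide 2 the other 2 arrays with tumors. Slide 3 held DMH array 1, and slide 4 DMH arrays 2 and 3. Since the DMH arrays also had a scan day of their own, an effect of slide or scan day cannot be told apart from treatment in any comparison with DMH. DMH arrays varied less: the median SD over features was 0.116 in DMH, 0.267 without tumors and 0.383 with tumors. All 12 colon epithelium markers, from Epcam and Cdh1 to Krt20 and Slc26a3, were well above background on all 9 arrays. Levels below are log2 signal minus log2 of the 75th percentile of the same array. They are comparable between arrays for a probe, not between probes.

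Nr1d2, the REV-ERB-beta gene, was higher in butyrate arrays than in DMH arrays, and Arntl and Npas2 were lower. REV-ERBs are known to repress Arntl and Npas2, and whether they did so in these samples was not tested. In butyrate against DMH, the limma fit with Benjamini-Hochberg adjustment thus called 3 of the 6 genes (adjusted p under 0.05), of which 1 was higher and 2 were lower, where 9.21% of all 21968 features were called, 5.85% higher and 3.36% lower. For the same 3 genes the 6 butyrate arrays and the 3 DMH arrays did not overlap, as was the case for 26.3% of features. The median log2 fold change of the 6 genes, which went both ways, was -0.32, beside 0.08 over all features. It was -0.0145 without the arrays of slide 1 and -0.068 with the mean of each gene's probes. Clock, Rora and Nr1d1 did not pass the test.

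**Figure D1:**
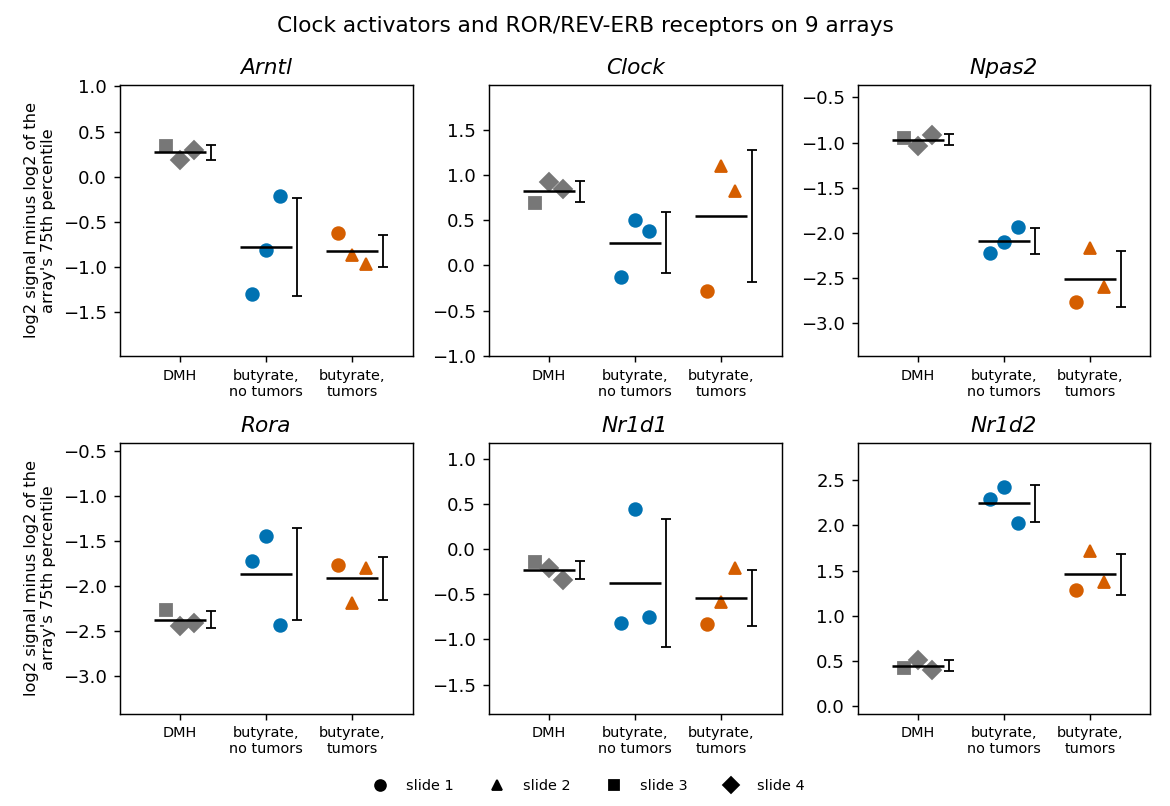
Level of each of the 6 genes (log2 signal minus log2 of the array's 75th percentile, y axis) on every array of the 3 groups (x axis), with the slide as the marker shape and the bar at the group mean. Arntl and Npas2 lay lower and Nr1d2 higher on all 6 butyrate arrays than on any DMH array; for Clock, Rora and Nr1d1 the butyrate arrays overlapped the DMH arrays.

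Among the activators, Arntl encodes the partner that both CLOCK and NPAS2 need. Its level was 0.34, 0.18 and 0.29 on DMH arrays 1 to 3, -1.30, -0.82 and -0.21 on the arrays without tumors, and -0.63, -0.86 and -0.97 on those with tumors. Every butyrate array lay below every DMH array, with array 3 without tumors closest to DMH and array 1 without tumors farthest. The log2 fold change of butyrate against DMH was -1.07 ± 0.23 (SE, adjusted p = 0.0313, limma), or 2.10-fold lower. The arrays without tumors spread more widely (SD 0.54, n = 3) than those with tumors (SD 0.17, n = 3), and the means of these groups, -0.78 and -0.82, differed by less than either SD.

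Npas2, which can stand in for CLOCK as the partner of ARNTL, had the smallest p of the 6 genes in this comparison. It stood at -0.95, -1.04 and -0.91 on DMH arrays, -2.22, -2.11 and -1.93 without tumors, and -2.77, -2.16 and -2.60 with tumors. All 6 butyrate arrays were lower than all DMH arrays, and the gap between the groups, from -1.93 to -1.04, was wider than the range within DMH. The log2 fold change was -1.33 ± 0.21 (SE, adjusted p = 0.0195, limma), or 2.52-fold lower. With normexp background correction and quantile scaling in place of the scanner's processed signal, it was -0.69 (adjusted p = 0.0249).

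Clock itself behaved differently from slide to slide. Its brighter probe gave 0.69, 0.92 and 0.84 on DMH arrays, -0.13, 0.50 and 0.38 without tumors, and -0.28, 1.10 and 0.82 with tumors. The 4 arrays of slide 1 were all below the DMH arrays, and the 2 butyrate arrays of slide 2 were level with them or above. The log2 fold change of -0.42 ± 0.30 (SE, adjusted p = 0.370, limma) did not pass the test, and it was 0.14 without the arrays of slide 1. A second Clock probe (A_52_P334677) gave -0.19 ± 0.27 (SE, adjusted p = 0.649, limma over all probes).

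**Figure D2:**
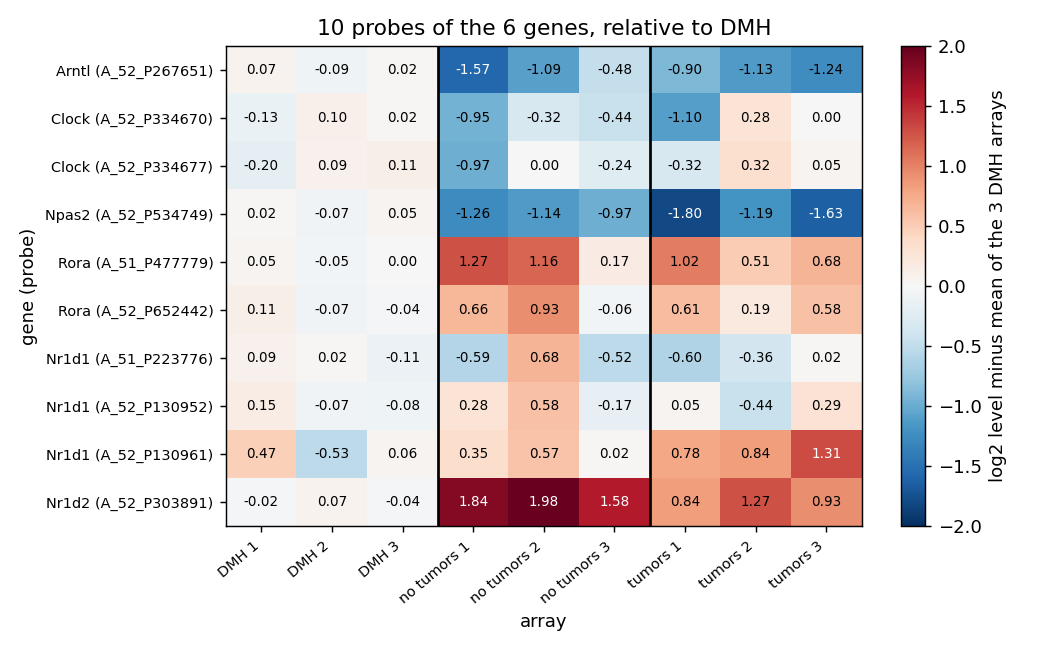
Each of the 10 measured probes of the 6 genes (y axis) on each array (x axis), as the log2 level minus the mean of the 3 DMH arrays, with blue lower and red higher. The single probes of Arntl and Npas2 were negative and that of Nr1d2 positive on all 6 butyrate arrays, while the 3 probes of Nr1d1 differed in sign.

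Of the receptors, Rora encodes the activator of the pair of opposing families. Its brighter probe gave -2.27, -2.44 and -2.41 on DMH arrays, -1.72, -1.44 and -2.44 without tumors, and -1.76, -2.19 and -1.80 with tumors. Array 3 without tumors lay within the DMH range and the other 5 butyrate arrays above it. The log2 fold change was 0.48 ± 0.23 (SE, adjusted p = 0.179, limma). On the second probe (A_51_P477779) all 6 butyrate arrays, from -2.92 to -1.82, were above the DMH arrays, from -3.14 to -3.03, with a log2 fold change of 0.80 ± 0.25 (SE, adjusted p = 0.0725, limma over all probes). Neither probe passed the test.

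Nr1d1, the REV-ERB-alpha gene, showed no common direction. Its brightest probe gave -0.14, -0.21 and -0.34 on DMH arrays, -0.82, 0.45 and -0.76 without tumors, and -0.83, -0.59 and -0.21 with tumors. Array 2 without tumors was the highest of the 9 arrays, and the other butyrate arrays lay within or below the DMH range. The SD of 0.71 (n = 3) without tumors was larger than that of 89.3% of features in this group, and the log2 fold change was -0.23 ± 0.29 (SE, adjusted p = 0.616, limma). The other probes of the gene gave 0.10 (A_52_P130952, adjusted p = 0.798) and 0.65 (A_52_P130961, adjusted p = 0.185) in limma over all probes. On the latter probe the arrays with tumors, at -1.86, -1.80 and -1.33, were all above the DMH arrays, at -2.17, -3.17 and -2.58. Its log2 fold change with tumors was 0.98 ± 0.28 (SE, adjusted p = 0.0737, limma over all probes).

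Nr1d2, by contrast, followed the groups closely. It stood at 0.42, 0.51 and 0.40 on DMH arrays, 2.29, 2.42 and 2.02 without tumors, and 1.29, 1.72 and 1.38 with tumors. The 3 groups did not overlap: DMH was lowest, butyrate with tumors lay between, and butyrate without tumors was highest. The log2 fold change of butyrate against DMH was 1.41 ± 0.27 (SE, adjusted p = 0.0272, limma), or 2.65-fold higher.

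These calls against DMH rested on few arrays: without any 1 of the DMH arrays no member was called by limma at an adjusted p under 0.05 (3 at an unadjusted p under 0.05), and without array 2 without tumors only Npas2 was. Of all features, 210, 7 and 8 were called without DMH array 1, 2 and 3, 263 without array 2 without tumors, and 17 with slide as a random block. With slide as a random block the adjusted p in limma was 0.134 for Arntl, 0.108 for Npas2 and 0.126 for Nr1d2, with log2 fold changes of -1.09, -1.34 and 1.37. Without the 4 arrays of slide 1, only the butyrate arrays of slide 2, both with tumors, are left. All 3 were then called, at -1.19, -1.41 and 1.10, where 2513 of 21957 features were. Slide and treatment cannot be told apart in that fit either.

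**Figure D3:**
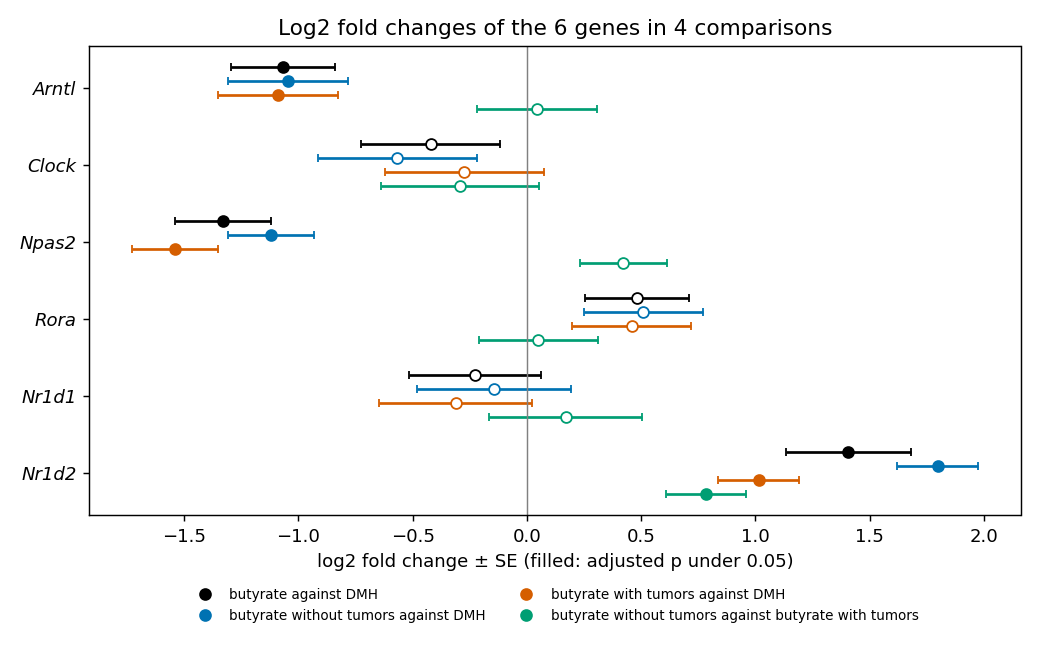
Log2 fold change (x axis, bars ± SE) of the 6 genes (y axis) in the 4 comparisons, with filled points where the adjusted p was under 0.05. Arntl, Npas2 and Nr1d2 are filled in the 3 comparisons with DMH, and Nr1d2 alone in butyrate without tumors against butyrate with tumors.

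Each butyrate group was also set against the same 3 DMH arrays, in 1 fit that shares the spread of all 3 groups. Without tumors, Nr1d2 was 3.48-fold higher than in DMH (log2 1.80 ± 0.18, adjusted p = 0.00126). Npas2 fell by 1.12 ± 0.19 on the log2 scale (adjusted p = 0.00561) and Arntl by 1.05 ± 0.26 (adjusted p = 0.0202, all limma). These 3 of 6 genes, 1 higher and 2 lower, were called where 30.5% of all features were (16.6% higher, 13.8% lower), a high background that the members' count is read against. For 4 of the 6 genes the arrays without tumors did not overlap DMH, beside 60.0% of features. Clock was lower than in DMH on all 3 arrays without tumors, with a log2 fold change of -0.57 ± 0.35 that did not pass the test (adjusted p = 0.236, limma). Rora stood at 0.51 ± 0.26 (adjusted p = 0.165) and Nr1d1 at -0.14 ± 0.34 (adjusted p = 0.765). The call of Arntl ended when array 2 of the group was left out (adjusted p = 0.0598) or any 1 DMH array (adjusted p 0.0593 to 0.0671). With slide as a random block the calls of Arntl (adjusted p = 0.127) and Npas2 (adjusted p = 0.0642) ended and that of Nr1d2 did not (adjusted p = 0.0141), and with normexp Npas2 stood at -0.52 (adjusted p = 0.0117).

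With tumors, Npas2 was 2.91-fold lower than in DMH (log2 -1.54 ± 0.19, adjusted p = 0.0180) and Nr1d2 2.02-fold higher (log2 1.01 ± 0.18, adjusted p = 0.0295, limma). Arntl was at the threshold, with -1.09 ± 0.26 and an adjusted p of 0.0499. It missed the threshold when every probe was its own feature (adjusted p = 0.0511), and when any 1 array was left out other than array 1 or 3 without tumors (adjusted p 0.0592 to 0.159). Again 3 of 6 genes were called, 1 higher and 2 lower, where 5.70% of features were (3.44% higher, 2.26% lower). For 4 of the 6 genes the arrays with tumors did not overlap DMH, beside 42.6% of features. Rora was above DMH on all 3 arrays with tumors, by a log2 fold change of 0.46 ± 0.26 (adjusted p = 0.266), while Clock (-0.27 ± 0.35, adjusted p = 0.621) and Nr1d1 (-0.31 ± 0.34, adjusted p = 0.557) overlapped DMH. Without array 3 with tumors, or without DMH array 2 or 3, no member was called by limma (3 at an unadjusted p under 0.05 each time). Of all features, 54, 4 and 4 were then called. Without DMH array 1 only Npas2 was called (adjusted p = 0.0272, limma), where 488 of all features were. With slide as a random block all 3 calls ended, with adjusted p-values of 0.183 for Arntl, 0.115 for Npas2 and 0.139 for Nr1d2, and with normexp Npas2 stood at -0.86 (adjusted p = 0.0151).

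Nr1d2 was the only member called between the butyrate groups, where 13.5% of features were (6.55% higher, 6.98% lower). It was also the only one whose groups did not overlap, beside 33.4% of features, and was higher without tumors, by 0.78 ± 0.18 on the log2 scale, or 1.72-fold (adjusted p = 0.0296, limma). This fit shares the spread of all 3 groups, DMH included. With only the butyrate groups in the fit Nr1d2 was not called, and 0 of all 21968 features were. With quantile scaling it was not called either, where 2381 features were. Within slide 1, which holds 1 array with tumors beside those without, the difference was 0.96. With slide as a fixed block it was 0.96 (adjusted p = 0.0513, limma). The call also ended when array 1 or 2 without tumors, array 3 with tumors or any 1 DMH array was left out (adjusted p 0.0503 to 0.0975). Npas2 differed by 0.42 ± 0.19 (adjusted p = 0.151), with the groups overlapping. The differences of Arntl (0.04 ± 0.26), Rora (0.05 ± 0.26), Nr1d1 (0.17 ± 0.34) and Clock (-0.29 ± 0.35) had adjusted p-values of 0.570 or more. Without array 1 with tumors, Clock was called lower without tumors (log2 -0.71), where 7772 of all features were called.

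The order of the group means differed between the genes. For Nr1d2 it was DMH, with tumors, without tumors, from low to high. Each neighbouring pair was called in the fit of 3 groups, but both calls ended under alternatives given above. Among these were slide as a random block for the lower pair and slide as a fixed block for the upper. For Npas2 it was with tumors, without tumors, DMH, and the 2 butyrate groups, at -2.51 ± 0.31 and -2.09 ± 0.15 (SD, n = 3 each), overlapped. For Arntl the 2 butyrate groups did not differ beyond their spread and DMH was higher. For Clock, Rora and Nr1d1 no neighbouring groups passed a test. Courses over the 9 arrays were compared with each gene centred on its own mean over these arrays. Those of Arntl and Npas2 were similar and differed by a root mean square of 0.34 in log2 units. Set against mirror images, Arntl differed from that of Rora by 0.37 and from that of Nr1d2 by 0.44, and Npas2 by 0.49 and 0.56.

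By the same measure, over the 9 arrays, the named genes closest to Arntl were Kcnn4 (0.15), H2ac15 (0.20) and Dhx37 (0.21), and the closest to Npas2 were Slc35e1 (0.13), Stard10 (0.18) and Angptl8 (0.18). Dmd (0.17), Yod1 (0.20) and Fnip2 (0.21) were closest to Nr1d2, while Tcof1 (0.17), H2ac23 (0.18) and Rack1 (0.19) were closest to its mirror image. These distances are set beside root mean squares of 0.57, 0.67 and 0.75 for Arntl, Npas2 and Nr1d2 themselves. They describe arrays that share slides and groups, and carry no test.

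Of 27 other genes of the clock, 24 were measured, and Bhlhe41, Arntl2 and Rorb did not pass the filter on dim probes. In butyrate against DMH 3 of the 24 were called higher and 1 lower, beside 5.85% and 3.36% of all features, and their median log2 fold change was 0.47, beside 0.08 over all features. The 3 that rose were all PAR bZIP factors, which bind D-boxes and are direct outputs of ARNTL with CLOCK or NPAS2. Dbp stood at 2.84, 2.55 and 2.21 on DMH arrays and between 3.91 and 5.18 on butyrate arrays, without overlap. Its log2 fold change was 1.92 ± 0.29 (adjusted p = 0.0170). Tef rose by 2.10 ± 0.32 (adjusted p = 0.0192) and Hlf by 2.19 ± 0.38 (adjusted p = 0.0230, all limma), and both were higher on all 6 butyrate arrays than on any DMH array. Nfil3, the repressor that binds the same D-boxes, stood at -0.62 ± 0.33 (adjusted p = 0.236), and a second, dimmer Nfil3 probe (A_51_P111492) at -1.47 (adjusted p = 0.0260, limma over all probes). Without array 1 with tumors 6 of the 24 were called higher and 2 lower, where 1614 of all features were called. Without DMH array 1 only 1 was called, and without DMH array 2 or 3 none was in limma (10 at an unadjusted p under 0.05 each time). With slide as a random block none of the 24 was called in limma either, Dbp, Tef and Hlf included (9 at an unadjusted p under 0.05). Of all features, 17 were called with this block, and 210, 7 and 8 without DMH array 1, 2 and 3.

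None of the 7 measured repressors of the clock was called by limma in butyrate against DMH (5 at an unadjusted p under 0.05). Per1 (0.83 ± 0.23, adjusted p = 0.0526) and Cry2 (0.87 ± 0.29, adjusted p = 0.0795) were higher on all 6 butyrate arrays. Ciart (2.72 ± 0.79), which encodes a repressor of CLOCK with ARNTL, Per3 (1.50 ± 0.49) and Per2 (1.02 ± 0.43) overlapped DMH, and Cry1 stood at -0.16 ± 0.31. A dimmer Per2 probe (A_52_P536869) had the opposite sign, at -0.29 ± 0.45 (adjusted p = 0.691, limma over all probes). Of 6 enzymes that act on clock proteins 1 was called: Btrc, a subunit of a ubiquitin ligase that targets PER proteins, fell by 0.62 ± 0.15 (adjusted p = 0.0408). Of the corepressors of REV-ERB, Hdac3 stood at -0.68 ± 0.23 (adjusted p = 0.0817) and Ncor1 at 0.10 ± 0.28, and of 5 other clock-controlled genes none was called by limma (2 at an unadjusted p under 0.05). Dimmer probes of Csnk1d (A_52_P477369, -0.88, adjusted p = 0.0393) and Lpin1 (A_52_P483104, -1.54, adjusted p = 0.0276) were called lower in limma over all probes, while the probes used stood at -0.29 and -0.21. The remaining Csnk1d probes had the opposite sign and were not called (A_51_P136277, 0.11, and A_52_P11576, 0.31). A_52_P11576 was called higher without tumors against DMH (0.50, adjusted p = 0.0444, limma over all probes). The remaining Lpin1 probe (A_52_P483105) stood at -0.54 and was not called.

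**Figure D4:**
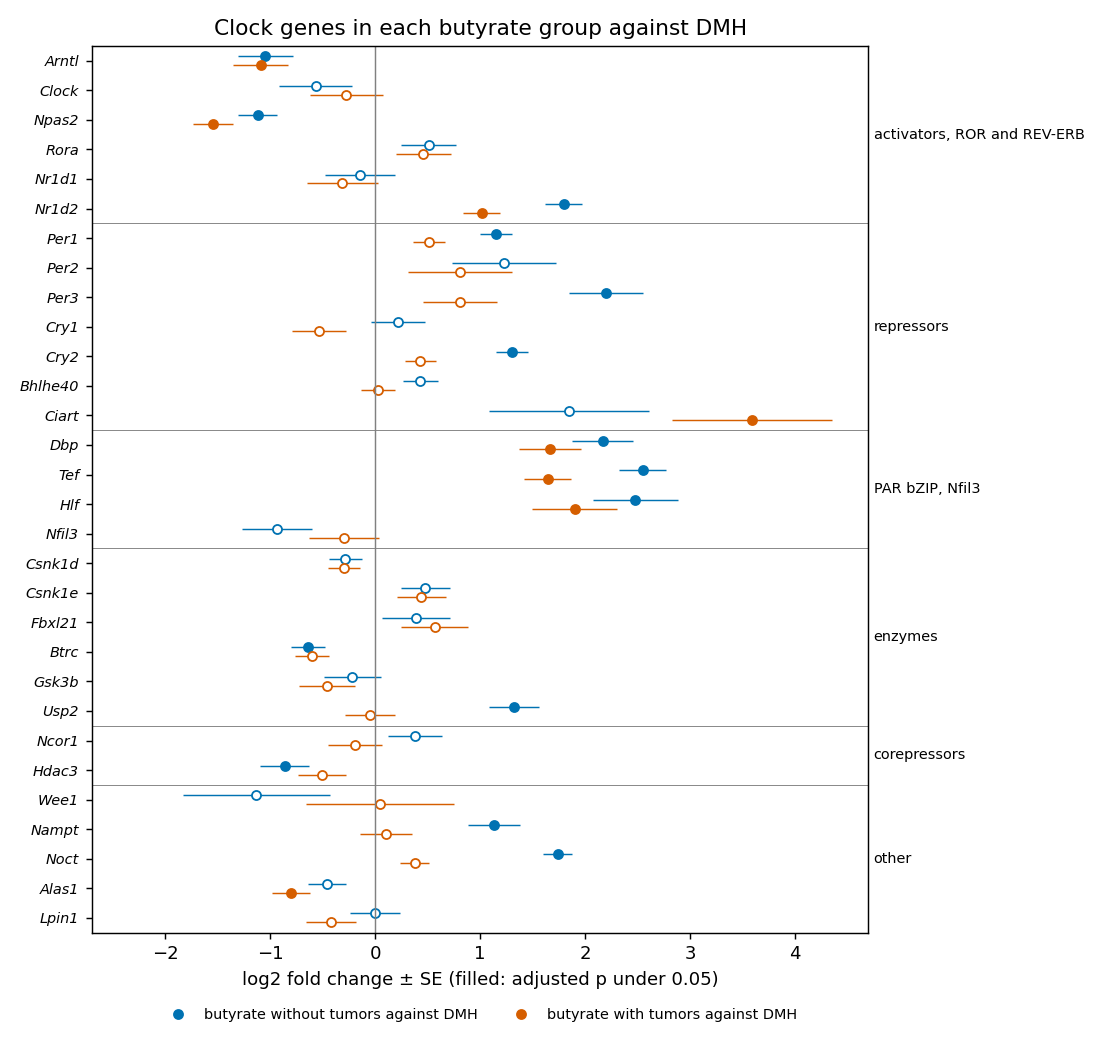
Log2 fold change against DMH (x axis, bars ± SE) of the 6 genes and the 24 other measured clock genes (y axis), in butyrate without tumors and butyrate with tumors, filled where the adjusted p was under 0.05. Both comparisons use the same 3 DMH arrays. Dbp, Tef and Hlf are filled on the right in both, at 1.64 to 2.55, and Btrc on the left without tumors.

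Without tumors, 9 of the 24 clock genes were called higher and 2 lower than in DMH, beside 16.6% and 13.8% of all features, with a median of 0.45. Cry2 (1.31), Per1 (1.15) and Per3 (2.20) rose among the repressors (3 of 7), with adjusted p-values of 0.00163, 0.00242 and 0.00491. Tef (2.55), Dbp (2.17) and Hlf (2.48) rose, as did Usp2 (1.32), a deubiquitinase, Noct (1.74) and Nampt (1.13). Btrc (-0.64) and Hdac3 (-0.86) were lower. Without any 1 DMH array, or without array 2 of the group, 8 or 9 were called higher and none lower (11 to 14 of the 24 at an unadjusted p under 0.05, limma). Of all features, 4170, 2841 and 2911 were called without DMH array 1, 2 and 3, and 3985 without array 2 of the group. With slide as a random block 6 were called higher and none lower (15 of the 24 at an unadjusted p under 0.05, limma), where 1006 of all features were called. Of the other Nampt probes 1 was called (0.93, adjusted p = 0.0175) and 1 was not (0.17, adjusted p = 0.516, limma over all probes).

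With tumors, 4 of the 24 were called higher and 1 lower than in DMH, beside 3.44% and 2.26% of all features, with a median of 0.07. Tef (1.64), Dbp (1.66) and Hlf (1.90) rose, with adjusted p-values of 0.0235, 0.0307 and 0.0401. Ciart rose by 3.59 ± 0.76 (adjusted p = 0.0401) from a level well above background on 2 of 3 DMH arrays. Alas1, a clock-controlled gene of heme synthesis, fell by 0.80 (adjusted p = 0.0445). Of the 24, 2 were called without array 2 of the group without tumors, where 317 of all features were, and 1 without array 3 with tumors (54 features). The count was 3 without array 3 without tumors (442 features), array 2 with tumors (1789 features) or DMH array 1 (488 features). All clock genes called in these fits were higher. None was called by limma without DMH array 2 or 3 (8 and 7 at an unadjusted p under 0.05), nor with slide as a random block (7 at an unadjusted p under 0.05). In each of these settings only 4 of all features were called.

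Between the butyrate groups 7 of the 24 were called, all higher without tumors, beside 6.55% of all features called higher and 6.98% lower. With slide as a random block 5 were called higher (2242 of all features called), and 3 with slide as a fixed block (2462 features). With only these groups in the fit, none was called by limma (9 at an unadjusted p under 0.05), and 0 of all 21968 features were. Calls within slide 1, which leaves 1 array with tumors, are not given for these genes. The 7 were Noct (1.36), Cry2 (0.88), Usp2 (1.37), Per1 (0.64), Nampt (1.03), Tef (0.90) and Per3 (1.39), with adjusted p-values from 0.00918 to 0.0401. Dbp (0.50) and Hlf (0.58) did not pass. Without array 3 with tumors 1 of the 24 was called higher, where 171 of all features were called. Without any 1 array without tumors 3 were called higher (1072 to 1289 features). Without any 1 DMH array 3 were too (1007 to 1797 features), and 1 was called lower without DMH array 1. Without array 2 with tumors 4 were called higher (2382 features). Without array 1 with tumors 8 were called higher and 2 lower, where 7772 of 21952 features were called. Nr1d2, at 0.78, thus moved in the same direction as these 7, and the remaining 5 members were not called.

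Markers of other cells in the mucosa moved with the groups too. In bulk RNA, fewer cells of a type and less RNA per cell cannot be told apart. The summed linear level of the 12 colon epithelium markers, relative to the 75th percentile, was 839 to 1005 without tumors, 763 to 1007 with tumors and 1432 to 1670 in DMH. In butyrate against DMH 5 of the 12 were called lower and none higher. Slc26a3 (0.88) was higher on all 6 butyrate arrays, and Aqp8 stood at 0.72. Without tumors against DMH these 2 were called higher (1.19 and 1.11) and 6 of the 12 lower, beside 16.6% and 13.8% of all features. The marker counts that follow are for butyrate against DMH, where 5.85% of all features were called higher and 3.36% lower. The sum of 7 goblet cell markers was 422 to 565, 191 to 749 and 1286 to 1409 in the same order of groups, with 5 of 7 called lower. The sum of 10 smooth muscle markers was 402 to 891, 456 to 912 and 232 to 397, with 1 called higher.

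The sum of 12 markers of enteric neurons and glia ran from 7.37 to 14.0 without tumors, 4.37 to 14.7 with tumors and 3.48 to 4.39 in DMH, with 4 called higher. That of the 5 measured neutrophil markers, of 8 listed, ran from 0.126 to 0.327, 0.569 to 5.79 and 3.65 to 3.95, with 1 called lower, and Ngp and Cxcr2 were well above background on no array. That of the 5 measured fat cell markers, of 6, ran from 9.03 to 62.2, 3.55 to 9.51 and 30.0 to 33.2, and that of 8 T and B cell markers from 9.21 to 15.4, 17.2 to 103 and 14.1 to 15.9. The highest T and B cell sum was on array 1 with tumors. The part of these shifts in the levels of Arntl, Npas2, Nr1d2 and the other clock genes was not tested.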

How the data were processed

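Expression was measured in 9 samples on single-colour Agilent arrays. The values analysed are each spot's processed signal, per the file headers an intensity after background subtraction by the scanner software (Agilent Feature Extraction 10.5.1.1 per the submitters' processing notes), not scaled between arrays; further processing is not given in the sources used here. A table deposited by the authors holds log2 values, which equal log2 of that signal minus 1 constant per array (4.19 to 6.75; column medians 2.71 to 3.20); which quantity the constant is stays unknown. It was used as an alternative.

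Each file held 43379 spots, none saturated. The 1639 control spots and outlier spots were left out, spots of a probe averaged, and log2 values scaled by each array's 75th percentile. A probe needed to be well above background on 3 of 9 arrays and to have 2 values per group, and the brightest probe of a gene was used: 21968 features, 15342 of them named genes. RefSeq accessions named 26925 of 41174 probes; 4725 probes carry another accession in the DMH files, none of them a member's. Sequences are from RefSeq (GRCm38.p6), and all 6 genes matched. Probe positions are not given here.

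limma 3.58.1 (lmFit and eBayes, 2-sided) in R 4.3.3 fitted all features, with Benjamini-Hochberg adjustment over all of them and calls under 0.05. Butyrate against DMH was a fit of 2 groups, and the other comparisons came from 1 fit of 3 groups. The number of arrays limits the precision. DMH arrays 2 and 3, which shared slide 4, differed from each other by less (SD of the difference 0.206) than from DMH array 1 on slide 3 (0.382 and 0.395). They were counted as the separate samples the labels list, with their average as an alternative. On simulated data of 21859 features, 100 changed at each size, 78 were called at a log2 change of 2 and 35 at 1 for butyrate against DMH. The simulated noise was independent between arrays, with the same SD in all groups and no slide effect. These numbers are therefore not the power of the real design. statmod 1.5.0 estimated the slide block. Python 3.11.15 and matplotlib 3.10.9 read files and drew plots.

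The text names all 6 members, up to 4 called genes per clock list and comparison by smallest p, and for each called member the 3 named genes with the closest course and the 3 closest to its mirror image. Uncalled clock genes named beside them were chosen after their values were seen. Members and lists were chosen with earlier results of these data known. Some genes of the clock lists are not reported here and are not in the counts. Alternatives were other scalings (quantile, none), normexp with an offset of 50, the authors' values, other filters, probe rules, priors and thresholds, array weights, blocks for replicate or slide, and fits without each array in turn.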

Additional observations from a re-analysis of the deposited data

Results flagged for a closer look

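Among the 6 butyrate arrays, Gsk3b, a kinase of clock proteins, stood apart on array 1 with tumors: its gap to the nearest array was 0.64 of the range of the group, above Dixon's critical value for 6 arrays. It was 1 of 34 probe profiles looked at in this way, and chance flags about 1 in 20.

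The log2 difference between butyrate without and with tumors, which is also the test of whether the groups differ in their change against DMH, passed the test in limma for Nr1d2 (0.78) and for Noct (1.36), Cry2 (0.88), Usp2 (1.37), Per1 (0.64), Nampt (1.03), Tef (0.90) and Per3 (1.39). In each of these the arrays without tumors were all higher than those with tumors, and 3 of the 4 arrays of slide 1 are arrays without tumors. Over the 24 clock genes that are not members, where 7 were called higher, 5 were with slide as a random block and 3 with slide as a fixed block. Of all features, 2242 and 2462 were called with these blocks. With only these groups in the fit, limma called none of them (9 at an unadjusted p under 0.05) and 0 of all 21968 features.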

How the results depend on the processing

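Arntl, Npas2 and Nr1d2 kept their direction against DMH under all alternatives run. Over the 24 fold changes of the 6 genes, 618 alternative values were computed: 501 kept direction and side of the threshold, 77 lost it, 8 passed it and 32 turned sign. The cause was not tested. With no scaling, the median of all features shifted to -0.76, -1.004, -0.53 and -0.48 in the 4 comparisons, in the order of the report. Normexp correction gave Npas2 log2 fold changes of -0.69, -0.52 and -0.86 in the comparisons with DMH.

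The number of members called in butyrate against DMH, 3, became 0 with no scaling, with slide as a random block and with DMH arrays 2 and 3 averaged, an alternative chosen after seeing the data; it became 5 with array weights, and 0 to 3 leaving out 1 array. Without tumors against DMH, 3 became 0 with no scaling, 5 with array weights, 1 with slide as a random block, and 2 to 4 leaving out 1 array. With tumors against DMH, 3 became 0 with no scaling, slide as a random block and averaged DMH arrays, 1 with no filter on dim probes, and 0 to 3 leaving out 1 array. Between the butyrate groups, 1 became 2 with the authors' values and 0 with quantile scaling, no scaling, no filter, averaged DMH arrays, slide as a fixed block and only the groups compared. With only the groups compared, 0 of all features were called. Leaving out 1 array gave 0 to 2. In limma, each 0 against DMH went with 2 or 3 members at an unadjusted p under 0.05, and each 0 between butyrate groups with 0 to 2.

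Same-numbered arrays showed no clear pairing: 4 of 9 same-number correlations were over 0.1 (-0.0095 to 0.263), and 4 of 9 arrays correlated best with their own number. So few arrays cannot exclude a pairing. With the replicate block, 1 member was called instead of 3 in butyrate against DMH, and 583 features instead of 2023.

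Values that turned sign follow. In butyrate against DMH, Rora was -0.36 with no scaling, Nr1d1 0.17 as the mean of its probes and 0.14 with array weights, and Clock 0.14 without the arrays of slide 1. Without tumors against DMH, Rora was -0.57 with no scaling, and Nr1d1 0.13 as the mean of probes, 0.49 with array weights and -0.55 to 0.078 leaving out 1 array (0.078 without array 1, 0.047 without array 3). With tumors against DMH, Rora was -0.15 with no scaling, Nr1d1 0.21 as the mean of probes, and Clock -0.55 to 0.14 leaving out 1 array. Between the butyrate groups, no scaling gave Arntl -0.42, Npas2 -0.045, Rora -0.42 and Nr1d1 -0.30, the mean of probes gave Nr1d1 -0.077, slide as a random block gave Arntl -0.055, Clock 0.13 and Rora -0.028, and slide as a fixed block and the fit within slide 1 both gave Arntl -0.15, Clock 0.54 and Rora -0.10. Leaving out 1 array gave Arntl -0.24 to 0.31, Rora -0.16 to 0.34 and Nr1d1 -0.24 to 0.39 there.

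Over all features, calls in butyrate against DMH numbered 2023, but 12484 with array weights, 511 with no filter, 35 with no scaling, 17 with slide as a random block, 263 without array 2 without tumors, 210, 7 and 8 without DMH array 1, 2 and 3, and 4 with DMH arrays 2 and 3 averaged. The 10 member probes were well above background on all arrays, yet background handling changed the size of some values. With normexp and quantile scaling, Npas2 went from -1.33 to -0.69 and Rora from 0.48 to 0.21 in butyrate against DMH. Arntl stood at -0.98 and Nr1d2 at 1.23 there.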
